A study of Mus musculus with 3 samples.

Results

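The MLL group of Trithorax methyltransferases and the proteins that work with them were followed across 3 mouse cell populations, as 10 genes chosen by name from the annotation of the array. They are the methyltransferase genes Kmt2a, Kmt2b, Kmt2c and Kmt2d, the chromatin-targeting genes Men1 and Psip1, and the core subunit genes Ash2l, Rbbp5, Wdr5 and Dpy30. All 10 had probe sets, 21 in all, of 18193 genes and 34945 probe sets with a single gene symbol. The study measured mRNA on an Affymetrix 3' array with 1 array each for embryonic stem (ES) cells and for 2 populations of the spleen, B220 B cells and CD4 T cells, all of strain C57BL/6. B6N-22 ES cells were kept with leukemia inhibitory factor on embryonic fibroblasts treated with mitomycin C. The B and T cells were taken from mice 6 to 8 weeks old and purified on magnetic beads, with a stated purity above 98%. Neither the number of mice per pool nor a removal of the fibroblasts before extraction is given in the sources used here. RNA was isolated straight after harvest in all 3, and the labels name no treatment and no genotype other than the strain.

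Trithorax proteins of the MLL group methylate lysine 4 of histone H3, a mark of active promoters and enhancers, and counter silencing by Polycomb complexes. KMT2A and KMT2B act mainly at promoters together with menin, encoded by Men1, while KMT2C and KMT2D act mainly at enhancers. Each enzyme is inactive or weak alone and works in a complex with WDR5, RBBP5, ASH2L and DPY30, a core that the SET1 methyltransferases also use. In blood cells KMT2A is known for its role in stem cells and as the target of translocations in leukemia.

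Values are signals on a linear scale as the authors deposited them. A probe set (a group of probes read as 1 value) was set against itself on another array, never against another probe set, since brightness depends on the probes. A signal of 95.0, the 50th percentile over the whole table, served as detection level. Dimmer values were set to that level ahead of the log2, so that a fold against one of them is written "at least". A gene was represented by its brightest probe set and was counted as different at 2-fold, or 4-fold as a stricter count. With 1 array per population there is no replicate error and no test, and every difference below describes these arrays only. What could be measured is the disagreement of probe sets of 1 gene. They read the same RNA on the same arrays, so it does not measure the spread between samples. Over all genes with at least 2 measured probe sets, the log2 differences of the 2 brightest lay a median of 0.54 apart for T cells against ES cells (5809 genes), 0.51 for B cells against ES cells and 0.30 for T cells against B cells. In these arrays the 90th percentiles were 1.75, 1.78 and 0.87.

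The arrays carried the markers of their labels, and also markers of other cells. All 10 ES cell markers were above detection in the ES cell array and 1 of 10, Utf1, in each lymphocyte array. All 9 measured B cell markers were above detection in B cells and 8 in T cells, with summed signals of 123065 and 5620. All 9 measured T cell markers were above detection in T cells and 7 in B cells, with summed signals of 81294 and 1497. Summed over 10 macrophage markers, the signal was 4066 (ES cells), 27090 (B cells) and 65264 (T cells), with all 10 above detection in both lymphocyte arrays. Summed over 10 fibroblast markers it was 66003 (ES cells), 679 (B cells) and 7639 (T cells), the last mostly Thy1, which T cells also express. The share of other cells in each member's signal was not tested, and less RNA per cell cannot be told apart from fewer cells of a type.

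The methyltransferase genes Kmt2a, Kmt2c and Kmt2d stood above ES cells in both lymphocyte arrays, Kmt2b was nearly level, and all 4 core subunit genes were lower in both lymphocyte arrays. In T cells, 3 of 10 members were 2-fold or more above ES cells and 3 of 10 were 2-fold or more below, where 22.7% and 24.7% of 12325 measured genes were. In B cells, 3 members were 2-fold or more above ES cells and 4 were 2-fold or more below, where 21.1% and 24.6% of 12463 measured genes were. At 4-fold, 1 member was higher and 2 were lower in T cells, beside 10.8% and 10.2% of measured genes. In B cells 0 were higher and 1 was lower at 4-fold, beside 9.85% and 10.3%. Both comparisons use the same ES cell array. As shares of 10 members these counts are not far from the background of all genes. The directions by role are a description of few genes on these same arrays. The members were chosen with earlier results of these data known, so the division by role is no independent result.

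**Figure D1:**
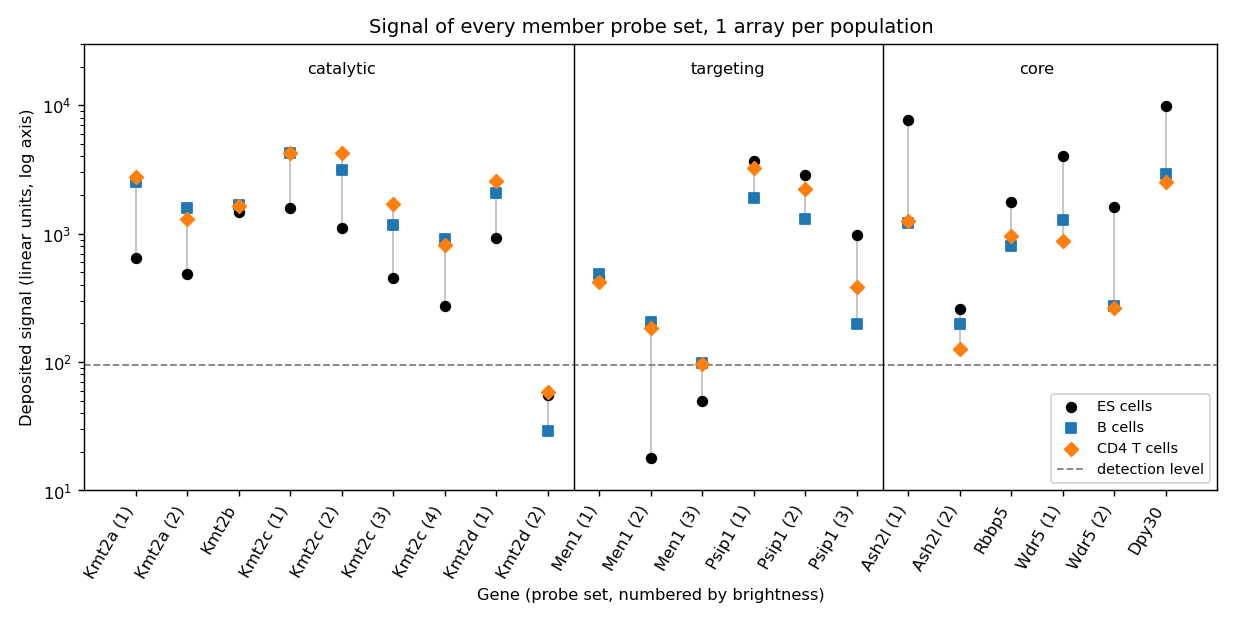
Deposited signal (linear units on a log axis) of all 21 member probe sets in the ES cell, B cell and CD4 T cell arrays, 1 point per array, with the detection level of 95.0 dashed and probe sets of a gene numbered from the brightest. The ES cell point lies lowest for all measured Kmt2a, Kmt2b, Kmt2c and Kmt2d probe sets and highest for all probe sets of Psip1 and of the 4 core genes.

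Kmt2a, which encodes the founding member of the family and binds unmethylated CpG through its CXXC domain, gave signals of 650.3 (ES cells), 2543 (B cells) and 2748 (T cells) on probe set 1452377_at. The second probe set, 1427283_at, gave 487.8, 1590 and 1298 in the same order. On both probe sets, which were designed on the same source record, the ES cell array was the lowest. The brighter one was 4.23-fold higher in T cells and 3.91-fold higher in B cells than in ES cells, or 2.08 and 1.97 on the log2 scale, and the other was 2.66-fold and 3.26-fold higher. Of the measured genes, 89.7% had a lower difference between T cells and ES cells than Kmt2a, and 89.9% between B cells and ES cells.

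Kmt2c encodes a methyltransferase of enhancers and had 4 probe sets. The brightest, 1434179_at, gave 1588 (ES cells), 4278 (B cells) and 4243 (T cells). Next, 1434178_at gave 1110, 3150 and 4211, and 1427150_at gave 447.7, 1165 and 1707. The dimmest, 1457193_at, gave 274.9, 916.1 and 822.2. The brightest and 1434178_at were designed on the same source record. The ES cell array was the lowest on every one of the 4. Their log2 differences ran from 1.42 to 1.93 for T cells against ES cells and from 1.38 to 1.74 for B cells against ES cells, so that all 4 were more than 2-fold higher in both lymphocyte arrays. Those ranges, 0.51 and 0.36 wide, are the spread of probe sets on the same arrays and not an error of the difference between populations.

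Kmt2d encodes the second enhancer methyltransferase. Its probe set 1435550_at gave 931.9 (ES cells), 2076 (B cells) and 2559 (T cells), 2.75-fold higher in T cells and 2.23-fold higher in B cells than in ES cells. The other probe set, 1427555_at, was below the detection level in all 3 arrays, at 55.8, 29.0 and 58.1, and gives no comparison, so the difference of Kmt2d rests on a single probe set. With each array scaled to the same 75th percentile, Kmt2d was 0.81 higher on the log2 scale in B cells and no longer counted at 2-fold.

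Kmt2b, the closest relative of Kmt2a, had 1 probe set with signals of 1465 (ES cells), 1670 (B cells) and 1628 (T cells). Its log2 differences to ES cells were 0.15 in T cells and 0.19 in B cells, smaller than the usual disagreement of probe sets, and under scaling to the 75th percentile they turned to -0.23 and -0.16. The RefSeq table lists the alias Mll2 under both Kmt2b and Kmt2d. Probe sets were assigned here by the gene symbol of the platform annotation. The Entrez identifiers listed with them led to the same symbols in the RefSeq table.

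Men1 encodes menin, which bridges KMT2A or KMT2B to LEDGF and to transcription factors. Its brightest probe set, 1416347_at, gave 462.7 (ES cells), 484.0 (B cells) and 423.3 (T cells), a near level signal. The second, 1416348_at, gave 17.8, 204.6 and 185.3, below detection in ES cells only. On it Men1 exceeded ES cells at least 2.15-fold in B cells and at least 1.95-fold in T cells. The third, 1443826_x_at, gave 49.6, 98.3 and 96.7, close to the detection level in both lymphocyte arrays, and the x in such a name marks probes that may also match other transcripts. The first and second were designed on the same source record, yet their log2 differences for T cells against ES cells were -0.13 and at least 0.96. Men1 was the single member of the 6 with several measured probe sets whose probe sets disagreed in sign for T cells against ES cells. No direction is given for Men1, whose brightest probe set went from 0.06 to -0.28 in B cells against ES cells under scaling to the 75th percentile.

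Psip1 encodes LEDGF, a reader of methylated lysine 36 of histone H3 that holds menin and KMT2A on chromatin. Probe set 1417166_at gave 3664 (ES cells), 1906 (B cells) and 3219 (T cells). Probe set 1460403_at gave 2844, 1311 and 2214, and 1442148_at gave 973.8, 196.7 and 385.2. All 3 had the same order, with ES cells highest, T cells between and B cells lowest. In B cells Psip1 was 1.92-fold below ES cells by the brightest probe set, just short of the 2-fold count (with scaling to the 75th percentile it stood at -1.29 on the log2 scale and was counted), and 2.17-fold and 4.95-fold lower by the others. In T cells the 3 probe sets were 1.14-fold, 1.28-fold and 2.53-fold below ES cells.

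Among the core subunits, Ash2l encodes the subunit that, with RBBP5, activates the methyltransferase. Probe set 1420616_at gave 7616 (ES cells), 1207 (B cells) and 1245 (T cells). It was 6.12-fold lower in T cells and 6.31-fold lower in B cells, the largest difference of any member by its brightest probe set. Of measured genes, 5.93% had a lower difference in T cells and 6.01% in B cells. The dimmer probe set 1420615_at gave 259.9, 196.6 and 126.1, and was 2.06-fold lower in T cells and 1.32-fold lower in B cells. Both were highest in ES cells, but they lay 1.57 apart on the log2 scale in T cells and 2.26 apart in B cells, the latter beyond the 90th percentile of disagreement over all genes. Both were designed on the same source record. The direction of Ash2l was shared by its probe sets and its size was not.

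Wdr5 encodes the propeller-shaped subunit that docks the methyltransferase, and is also part of acetyltransferase complexes. Probe set 1416581_at gave 4018 (ES cells), 1288 (B cells) and 880.4 (T cells). Probe set 1448389_at gave 1626, 273.2 and 265.4. ES cells were highest on both, which were designed on the same source record. Wdr5 was 4.56-fold lower in T cells and 3.12-fold lower in B cells by the brighter probe set, and 6.13-fold and 5.95-fold lower by the other. Of measured genes, 8.63% had a lower difference than the brighter probe set in T cells and 14.2% in B cells.

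Dpy30 encodes the smallest core subunit, which binds ASH2L as a dimer. Its single probe set, 1423767_at, gave 9807 (ES cells), 2890 (B cells) and 2525 (T cells). It was 3.88-fold lower in T cells and 3.39-fold lower in B cells. Rbbp5, a further propeller protein of the core, had 1 probe set, 1428886_at, with 1756 (ES cells), 798.5 (B cells) and 956.7 (T cells). It was 2.20-fold lower in B cells and 1.84-fold lower in T cells, the smallest difference of the core by brightest probe sets. In T cells it passed 2-fold only with scaling to the 75th percentile, at -1.25 on the log2 scale.

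**Figure D2:**
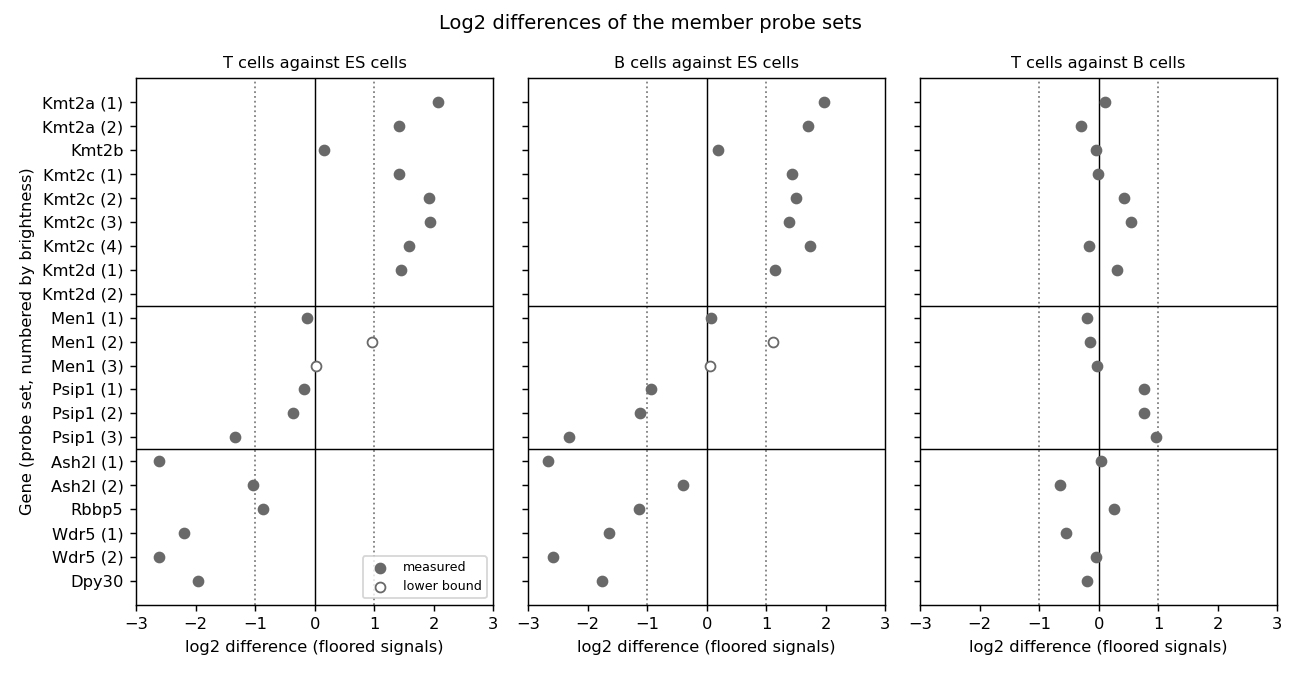
Log2 differences of the member probe sets in the 3 comparisons, after values below the detection level were raised to it, with dotted lines at 2-fold and open points for lower bounds (Kmt2d probe set 2 was below detection throughout and has no point). In both panels against ES cells the measured methyltransferase probe sets lie right of 0 and the core probe sets left of it, while in T cells against B cells all points lie between the 2-fold lines.

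By role, the 4 methyltransferase genes had median log2 differences to ES cells of 1.44 (T cells) and 1.29 (B cells), and the 4 core genes of -2.07 and -1.70. The medians of all measured genes were -0.11 and -0.07. With scaling to the 75th percentile they were -0.42 and -0.37, and of all genes counted at 2-fold, 34.4% were higher in T cells in place of 48.0%, and 34.2% in B cells in place of 46.2%. Relative to the median of all genes, Kmt2a stood at 2.19 in T cells with the deposited scale and 2.12 with that scaling, and Wdr5 at -2.08 and -2.15. That scaling multiplies each array by a single factor, so values relative to the median could hardly change.

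A difference between 2 members' differences is free of the scale of an array. For each of the 16 pairs of a methyltransferase and a core gene, the methyltransferase had the higher difference to ES cells in either lymphocyte array. The gap ran from 1.03 to 4.69 on the log2 scale in T cells and from 1.32 to 4.63 in B cells, the narrowest being Kmt2b with Rbbp5 in both. Over single probe sets, 48 of 48 pairs had that direction in each comparison. Both counts follow from the signs already given, with every measured methyltransferase probe set above 0 and every core probe set below. The pairs reuse the same genes and arrays and are no separate result. Members were assigned to roles from textbook knowledge, and with 4 genes a role these counts are a description.

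Between the T and B cell arrays, 0 of 10 members were 2-fold or more higher and 0 were 2-fold or more lower in T cells, where 8.89% and 6.32% of 11194 measured genes were, and 0 of 20 measured probe sets passed either way. With such low background shares, 0 of 10 is near what the genes as a whole show. The median was 0.02 on the log2 scale, beside -0.05 for all measured genes. Psip1 had the largest difference, 1.69-fold higher in T cells by the brightest probe set, with its 3 probe sets at 0.76, 0.76 and 0.97 on the log2 scale. Of measured genes, 87.4% had a lower difference. Wdr5 was 1.46-fold lower in T cells by its brighter probe set and 1.03-fold lower by the other. Kmt2a, Kmt2c and Ash2l had probe sets on both sides of 0, and Kmt2b stood at -0.04. The macrophage markers were all at least 2-fold higher in the T cell array in this comparison, and their part in the difference of Psip1 was not tested.

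Promoter sequences show the genomic setting of 2 genes that were higher and 2 that were lower in lymphocytes, and their CpG content is given because the CXXC domain of KMT2A binds CpG. These genes were chosen by name, and whether CpG content goes with direction was not tested. Dpy30, also lower in lymphocytes, is not printed, and its CpG counts are given below. The sequences come from RefSeq on GRCm38.p6, read 5' to 3' on the strand of the gene, and stop before the outermost listed start of the gene. Capitals mark each CG. Kmt2a is shown at chr9:44881353-44881539 on the minus strand, Kmt2c at chr5:25498856-25499033 on the minus strand, Wdr5 at chr2:27514897-27515146 on the plus strand and Rbbp5 at chr1:132477117-132477347 on the plus strand.
Kmt2a: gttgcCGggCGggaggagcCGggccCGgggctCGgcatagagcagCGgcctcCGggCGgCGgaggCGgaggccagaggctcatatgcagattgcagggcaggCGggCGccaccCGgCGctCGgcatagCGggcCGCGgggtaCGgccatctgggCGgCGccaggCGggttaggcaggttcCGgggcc
Kmt2c: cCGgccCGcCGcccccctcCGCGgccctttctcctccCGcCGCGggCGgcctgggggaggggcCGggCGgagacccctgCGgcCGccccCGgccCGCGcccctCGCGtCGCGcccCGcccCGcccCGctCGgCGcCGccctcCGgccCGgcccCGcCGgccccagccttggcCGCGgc
Wdr5: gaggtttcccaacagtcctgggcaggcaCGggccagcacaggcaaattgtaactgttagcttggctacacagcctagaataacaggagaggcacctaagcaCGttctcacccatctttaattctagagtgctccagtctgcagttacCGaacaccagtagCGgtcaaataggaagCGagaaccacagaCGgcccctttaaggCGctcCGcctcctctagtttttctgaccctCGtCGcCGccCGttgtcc
Rbbp5: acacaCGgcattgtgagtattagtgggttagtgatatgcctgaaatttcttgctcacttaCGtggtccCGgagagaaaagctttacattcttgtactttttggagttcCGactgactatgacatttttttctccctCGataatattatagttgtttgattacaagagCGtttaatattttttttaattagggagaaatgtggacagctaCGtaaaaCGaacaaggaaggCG

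Of the 10 members, 7 were found in the promoter table, with 12 windows of 250 bases before a listed start, and Kmt2b, Psip1 and Ash2l are named only. These windows are longer than the stretches of Kmt2a, Kmt2c and Rbbp5 printed above, which hold 23, 32 and 9 CG. In such a window Kmt2a had 29 CG, Kmt2c 48 and Kmt2d 26, more than in 93.2%, 99.8% and 90.4% of the 32851 windows examined, whose median was 6. Wdr5 had 12, Rbbp5 10, and the 3 windows of Men1 8 to 10. The 4 windows of Dpy30, a gene lower in lymphocytes, held 1, 21, 28 and 34 CG. Those were more than in 7.87%, 83.7%, 92.4% and 96.5% of all windows, in that order. The GC box GGGCGG, searched on both strands, was in a window of 5 of the 7 genes, all but Rbbp5 and Dpy30, and in 32.7% of all windows. The count is by gene, with 3 windows for Men1 and 4 for Dpy30, and the share is by window, so they are not alike. The ETS motif CCGGAAGT and the E-box CACGTG, searched likewise, were in none of the members' windows and in 2.88% and 6.02% of all windows. These are descriptions of the letters, and no binding or methylation was measured.

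Other genes of the machinery were read from lists of known partners, whose counts at 2-fold stand beside the same background shares as those of the members. Of 7 genes of the SET1 complexes, which use the same core, 2 were 2-fold or more above ES cells and 0 below in T cells, and 1 above and 0 below in B cells, with medians of 0.60 and 0.62. Cxxc1, which encodes the CpG-binding subunit, had signals of 640.7 (ES cells), 1483 (B cells) and 1529 (T cells). Setd1b, one of the catalytic genes, was 2.24-fold higher in T cells and 1.73-fold higher in B cells. The lowest difference in the list was -0.51 in T cells and -0.37 in B cells.

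Of 4 partners of KMT2C and KMT2D, 2 were 2-fold or more above ES cells in T cells, 1 was in B cells, and 0 were below in either. Ncoa6, a coactivator subunit, was 2.33-fold higher in T cells and 2.04-fold higher in B cells. Kdm6a, the demethylase subunit that removes methylation of lysine 27, was 2.15-fold higher in T cells, and its probe sets ranged between 0.31 and 2.34 (log2). Paxip1, a subunit that takes part in DNA damage signalling, was 1.59-fold lower in T cells and 1.63-fold lower in B cells.

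Of 11 measured partners listed for KMT2A and KMT2B, 3 were 2-fold or more above ES cells and 1 below in T cells, and 2 above and 0 below in B cells, with medians of -0.16 and -0.12. Jund, whose protein binds menin, was 5.37-fold higher in T cells and 5.03-fold higher in B cells. Tasp1 encodes the protease that cleaves KMT2A and KMT2B, and gave 223.4 (ES cells), 154.9 (B cells) and 791.3 (T cells). It was thus 3.54-fold higher in T cells than in ES cells and 5.11-fold higher than in B cells, with probe sets of 1.56 to 2.35 on the log2 scale in the latter. Of 6 measured relatives in the Trithorax list, 1 was counted above ES cells in T cells, 2 were in B cells, and 0 were below. Kmt2e, which encodes a divergent family member, was 5.69-fold higher in T cells and 7.29-fold higher in B cells, with probe sets of 0.88 to 3.34 and 0.91 to 3.53 on the log2 scale, the lower value of each being a bound because that probe set was below detection in ES cells. The other counted gene was Bptf, a remodeller subunit that reads methylated lysine 4, 2.09-fold higher in B cells.

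**Figure D3:**
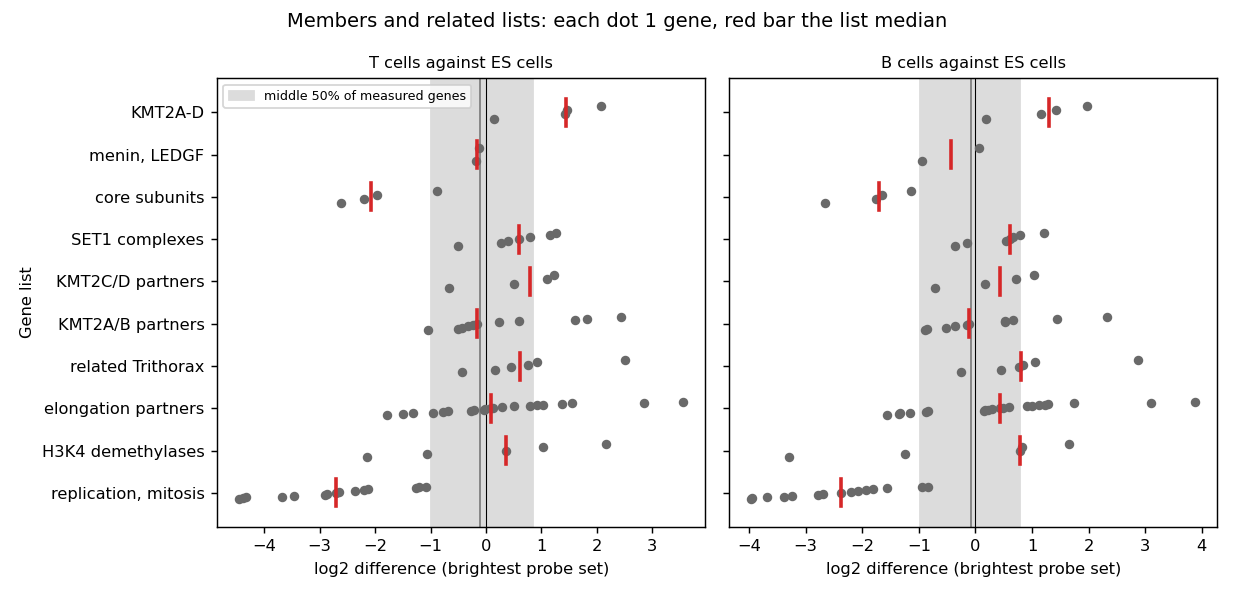
Log2 differences to ES cells for members and related lists, 1 point per measured gene by its brightest probe set, with the list median in red and the middle 50% of all measured genes shaded. The core subunit median of -2.07 in T cells lies beside the replication and mitosis median of -2.70, and the methyltransferase median of 1.44 lies right of the shaded range. Hcfc1 and Hcfc2 stand in both the SET1 list and the list of KMT2A and KMT2B partners.

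The next list holds elongation factors that fuse with KMT2A in leukemia or work beside it. Of 21 measured, 5 were 2-fold or more above ES cells and 3 below in T cells, and 6 above and 4 below in B cells. That is 23.8% and 14.3% in T cells and 28.6% and 19.0% in B cells, beside 22.7% and 24.7%, and 21.1% and 24.6%, of all measured genes. Mllt3, a reader of acylated histones, gave 116.1 (ES cells), 253.2 (B cells) and 1365 (T cells). Aff3, a scaffold of elongation complexes, was 7.23-fold higher in T cells and 14.8-fold higher in B cells by its brightest probe set. Its 2 measured probe sets stood at 1.65 and 2.85 on the log2 scale in T cells and at 2.39 and 3.88 in B cells. Leo1, a subunit of the PAF1 complex, was 3.46-fold lower in T cells and 2.94-fold lower in B cells.

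Of 5 measured demethylases that remove methylation of lysine 4, 2 were 2-fold or more above ES cells and 2 below in T cells, and 1 above and 2 below in B cells. Kdm5b gave 4577 (ES cells), 467.3 (B cells) and 1033 (T cells), and 1 of its probe sets was below detection in both lymphocyte arrays and gives only a bound, at least 0.23 lower on the log2 scale. Kdm1a was 2.10-fold lower in T cells and 2.37-fold lower in B cells, and Kdm1b was 4.50-fold and 3.15-fold higher.

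Of 20 listed targets of menin and KMT2A with a probe set, above detection were 14 (ES cells), 5 (B cells) and 7 (T cells). Of all 18193 genes, 10967, 10509 and 10329 were above detection, in the same order. Several of the listed targets counted in ES cells lay close to the detection level. They were Hoxa10 (102.9), Hoxa3 (103.1), Bach2 and Meis1 (117.2 each), Hoxb3 (117.8) and Hoxa11 (135.5). The lowest target counted was Hoxb4 in both lymphocyte arrays, at 184.0 (B cells) and 135.4 (T cells). How far the target counts depend on the detection level was not tested. In T cells against ES cells 16 were measured, with 4 above at 2-fold and 3 below, and 15 in B cells, with 3 above and 4 below. Gata3, the regulator of helper T cell development, exceeded either other array at least 13.2-fold in T cells. Bach2, a repressor that restrains effector differentiation, gave 117.2 (ES cells), 7542 (B cells) and 3752 (T cells), with its lowest probe set, below detection in ES cells, at least 1.26 higher on the log2 scale in T cells. Cdkn1b, a cell cycle inhibitor gene, was 15.2-fold higher in T cells and 11.4-fold higher in B cells, and Cdkn2c was 5.24-fold and 4.09-fold higher. The lowest probe set of Cdkn1b, also below detection in ES cells, gave at least 1.08 in T cells. Cdkn2a went the other way, with 395.2 (ES cells), 4.5 (B cells) and 27.8 (T cells), at least 4.16-fold below ES cells in B cells. The ES cell array also carried fibroblast markers, and the part of fibroblasts in its signals of these targets was not tested.

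Replication and mitosis genes moved in the direction of the core subunits. Of 15 measured, 15 were 2-fold or more below ES cells in T cells and 13 in B cells, with medians of -2.70 and -2.37. Cdk1, the mitotic kinase gene, was 20.8-fold lower in T cells. The part of proliferation in the values of Ash2l, Wdr5, Dpy30 and Rbbp5 was not tested.

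Genes with the profile most like that of Kmt2a over the 3 arrays were Cnppd1, Eif2ak2, Man2b1, Ppt1 and Etohd2, by the root mean square distance of log2 signals centred on each gene's mean. Cnppd1, the closest, gave 520.2 (ES cells), 1995 (B cells) and 2143 (T cells), at a distance of 0.016. Of 8598 other genes above detection in all arrays, 70 lay within 0.1 of Kmt2a and 421 within 0.1 of Men1, whose closest were Smad2, Pds5b, Sympk, Wdr7 and Manf. A profile of 3 points is shared by many genes.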

How the data were processed

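The deposited table holds a linear signal intensity for each of 45037 probe sets on 3 arrays. Affymetrix Expression Console was used by the authors, per the submitters' processing notes; its version, summarization and scaling target are not stated there. After trimming 2% at each end, the column means were 497.3 (ES cells), 497.8 (B cells) and 497.7 (T cells). On arrays so scaled, cells that differ in total mRNA look alike. Probe sets were named through GEO's platform annotation (34945 with 1 symbol, 932 with several, 9160 with none). All 10 Entrez identifiers were found in the RefSeq table of GRCm38.p6, and 0 symbols changed. Computation used Python 3.11.15 with pandas 2.3.3 and numpy 2.4.6, and the counting was tested on simulated data. No test was run, and the number of arrays limits the precision.

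The members and lists were chosen with earlier results of these data known. The text names all members and the 5 genes nearest in profile to Kmt2a and Men1. List genes given with values came from the up to 4 measured genes farthest from 0 in each list and comparison. Not all of those are named, and some that are named lie nearer 0 than others left out. The alternatives tried were scaling to the 75th percentile, quantile normalization, adding 16 in place of the floor, detection levels at the 65th and 35th percentile, the mean over measured probe sets, and a count in which every measured probe set had to pass. Listed genes without a probe set of their own in the table were not analysed here.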

Additional observations from a re-analysis of the deposited data

How the results depend on the processing

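Over 7 alternatives, the counts of members and the medians of all members, of the methyltransferases and of the core genes gave 96 comparisons with the values reported, and 0 moved by more than 1.5 times (counts) or by more than the median disagreement of probe sets (medians). Of 180 values of single members, 4 moved by more than that disagreement, all with the mean over measured probe sets, namely Ash2l at -1.83 in T cells and -1.53 in B cells against ES cells and -0.30 in T cells against B cells, and Psip1 at -1.46 in B cells against ES cells. Part of these comparisons could not move. The brightest probe set of every member lay above the 2 other detection levels in all 3 arrays, so those left each member's value unchanged. The mean over probe sets could not change Kmt2b, Kmt2d, Rbbp5 or Dpy30, each with 1 measured probe set. The count in which every probe set had to pass gave no medians or single values. Kmt2a and Kmt2c were at least 2-fold higher in both lymphocyte arrays under every alternative, and Wdr5 and Dpy30 at least 2-fold lower. Between T and B cells 0 members passed under any of them. With scaling to the 75th percentile the counts in B cells became 2 higher and 5 lower, through Kmt2d, which dropped out, and Psip1, which came in, and Rbbp5 made 4 lower in T cells. Where every measured probe set had to pass, 3 were lower in B cells, without Ash2l. Psip1 came in with the mean over probe sets too, for 5. No paired analysis was possible because each population had 1 array and the labels give no replicate numbers. Signal over background limits Men1, of whose probe sets only the brightest was above detection in ES cells, and Kmt2d, with 1 usable probe set.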
